A study of Mus musculus with 20 samples.

Results

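The immunoproteasome and the peptide loading machinery of MHC class I were followed in mouse liver through 10 genes: Psmb8, Psmb9, Psmb10, Psme1, Psme2, Tap1, Tap2, Tapbp, B2m and Erap1. Members were all probe sets (the oligonucleotide sets by which the array measures a transcript) whose annotated symbol was exactly a member's, which gave 16 of 45037 probe sets, for 9 of the 10 genes (of 18193 genes annotated alone). Psme2 was annotated only together with another gene, at 1 probe set, and was not analysed here. Tap1 had 4 probe sets, Psmb8, Tapbp, B2m and Erap1 had 2 each, and Psmb9, Psmb10, Psme1 and Tap2 had 1 each.

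Proteasomes cut intracellular proteins into peptides, and the catalytic subunits encoded by Psmb8, Psmb9 and Psmb10 take the place of the constitutive subunits encoded by Psmb5, Psmb6 and Psmb7 in the immunoproteasome. Psme1 and Psme2 encode the PA28 activator, Tap1 and Tap2 the transporter that carries peptides into the endoplasmic reticulum, and Tapbp the tapasin that holds MHC class I molecules to that transporter. Erap1 trims the peptides there and B2m encodes the light chain shared by class I molecules. These genes are known targets of interferon signaling, and in the liver they are expressed by hepatocytes as well as by Kupffer, endothelial and infiltrating immune cells.

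Livers came from male mice that were 9 weeks old when dosing began, in 4 groups of 5 animals, with 1 Affymetrix Mouse430_2 array per animal. WT mice (PXR+/+, C57BL/6) and PXR-KO mice (PXR-/-) received vehicle (0 mg/kg) or CMP013, an inhibitor of the protease BACE1, at 150 mg/kg by oral gavage every 24 h, and were killed at 96 h. PXR, encoded by Nr1i2, is a nuclear receptor that senses foreign compounds. The PXR-KO animals are given as C57BL/6NTac in the source label and as C57BL/6 under strain, so genotype and background substrain cannot be told apart. Each value is a log2 ratio of 1 animal to the average vehicle animal of its own genotype (5 animals). Ratios show no absolute level, so the deletion of PXR, the liver markers and the vehicle levels of WT against PXR-KO mice were not checked or compared, and dim probe sets could not be set aside. In whole liver, fewer cells of a type and less RNA per cell cannot be told apart. Array medians lay between -0.0275 and 0.0117, and the highest correlation between 2 arrays was 0.593.

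Tap1, Psmb9, Psmb8, Tap2 and Tapbp lie in the MHC region of chromosome 17 (GRCm38.p6), and the first pair starts in opposite directions from a common stretch of 225 bases. Psmb9 spans chr17:34182030-34187330 and Tap1 chr17:34187556-34197225. This stretch is shown because its genes, Tap1 and Psmb9, were the members that fell in PXR-KO mice. It runs from chr17:34187331-34187555 on the plus strand, up to the base before the Tap1 start, with the CCAAT box and the GC box (GGGCGG, on the minus strand) in capitals.
Psmb9-Tap1: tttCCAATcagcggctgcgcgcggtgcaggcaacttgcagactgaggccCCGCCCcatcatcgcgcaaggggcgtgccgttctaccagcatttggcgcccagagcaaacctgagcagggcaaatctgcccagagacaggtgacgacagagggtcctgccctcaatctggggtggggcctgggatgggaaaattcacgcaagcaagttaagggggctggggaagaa
The next 2 fragments are shown because they hold the matches to interferon or NF-kB motifs among the members' windows. The B2m fragment (chr2:122147540-122147578, plus strand) has an interferon-stimulated response element (ISRE, GAAANNGAAA) and a match to the NF-kB site in capitals, and the Psmb8 fragment (chr17:34198088-34198117, plus strand) has a gamma-activated site (GAS, TTCNNNGAA, the same on both strands).
B2m: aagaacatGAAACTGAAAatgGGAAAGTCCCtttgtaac
Psmb8: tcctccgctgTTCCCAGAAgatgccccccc
For contrast, the constitutive counterpart Psmb5 (chr14:54618023-54618052, minus strand) has the core of the antioxidant response element (ARE, TGACNNNGC) in capitals.
Psmb5: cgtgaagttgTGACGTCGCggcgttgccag

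These sequences and the starts come from RefSeq, where 9 of the 10 members had a promoter window, and the 250 bases before each start were searched on both strands. The ISRE was found in 2.98%, the GAS in 7.02%, the NF-kB site in 7.25%, the GC box in 32.7%, the CCAAT box in 33.8% and the ARE core in 10.2% of 32851 such windows. Besides the fragments shown, Psme1, Psme2 and Tapbp had a GC box, and Tapbp and B2m a CCAAT box. Psmb10 and Erap1 held none of these motifs. No ARE core was found in the windows of the 9 members. Of the constitutive counterparts, Psmb6 had an ARE core as well as Psmb5, and Psmb7 had no window to search. A match describes the letters of the window only.

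Among the 16 probe sets of the members, 3 rose and none fell under CMP013 in WT mice, 2 fell and none rose in PXR-KO mice, and the response differed between the genotypes at 3. The called probe sets in WT mice were those of Psme1 and Tapbp, and in PXR-KO mice those of Psmb9 and Tap1. A probe set was called where the Benjamini-Hochberg adjusted p of limma, taken over all probe sets, was under 0.05. In WT mice, 14.4% of all probe sets were called (7.67% higher, 6.72% lower), against 3 of the 16 members. In PXR-KO mice 3.65% were called (2.12% higher, 1.54% lower), against 2 of 16. For the difference of the responses 11.0% were called (5.47% higher and 5.49% lower in WT), against 3 of 16. At an unadjusted p under 0.05 the members numbered 4 higher and 0 lower in WT mice, 2 higher and 4 lower in PXR-KO mice, and 5 higher and 1 lower for the difference, beside 27.6%, 20.1% and 25.1% of all probe sets in either direction. The median log2 fold change of the members was 0.23 in WT and 0.07 in PXR-KO animals, beside -0.01 and 0.0076 over all probe sets. In size the members were close to the whole array in WT mice, with a median absolute log2 change of 0.234 against 0.233, and it was 0.254 against 0.196 in PXR-KO mice.

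**Figure D1:**
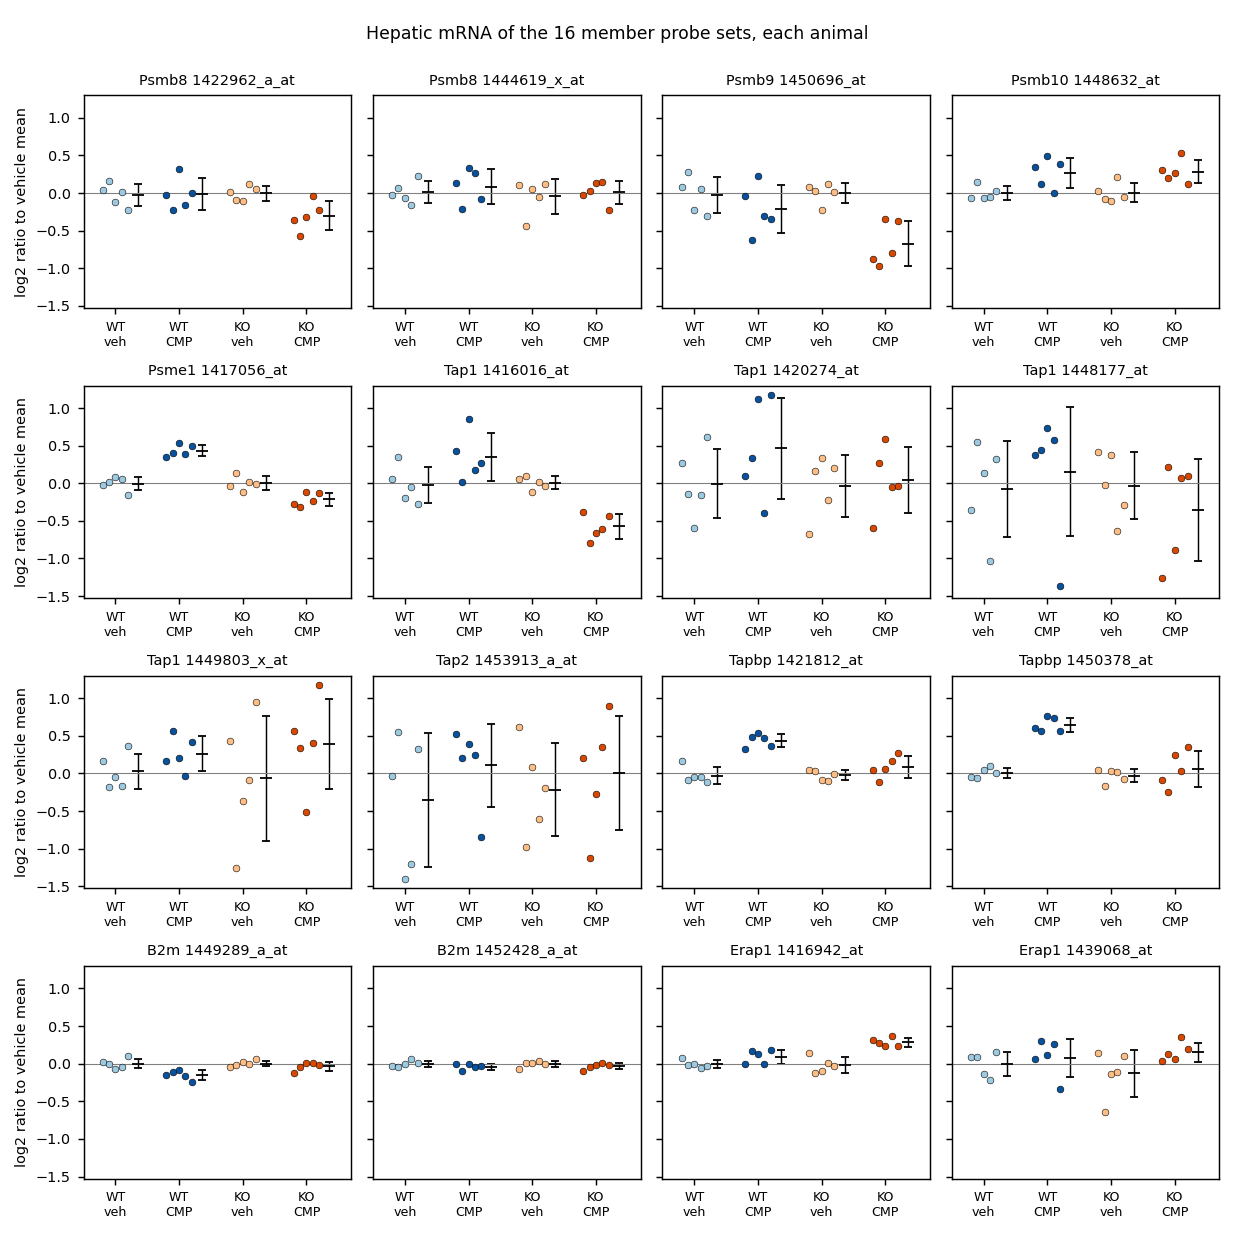
Log2 ratio to the vehicle mean (y axis) of each animal (points) for the 16 member probe sets in WT and PXR-KO mice given vehicle (veh) or CMP013 (CMP); bars are the mean and SD of 5 animals. Treated WT animals lie above all vehicle animals for Psme1 and both Tapbp probe sets, and treated PXR-KO animals lie below them for Psmb9, Psme1 and Tap1 1416016_at.

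At 4 of the 16 probe sets in WT mice all treated animals lay on the same side of all vehicle animals, beside 14.7% of all probe sets, and in PXR-KO mice this held for 4 of 16, beside 7.57%. In WT mice these were Psme1 and both Tapbp probe sets, above vehicle (7.78% of all probe sets), and B2m 1449289_a_at, below it (6.96%). In PXR-KO mice they were Erap1 1416942_at, above vehicle (4.07% of all probe sets), and Psmb9, Psme1 and Tap1 1416016_at, below it (3.5%).

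Of the catalytic subunits of the immunoproteasome, Psmb9 was called in PXR-KO mice and none was called in WT mice. Psmb9 encodes the subunit beta-1i. Its log2 ratios were 0.08, 0.03, -0.23, 0.12 and 0.01 in vehicle PXR-KO mice. Treated PXR-KO mice had -0.88, -0.97, -0.34, -0.80 and -0.37. All 5 treated animals were below the lowest vehicle animal, with 2 of them close to it. Psmb9 fell by 0.67 on the log2 scale (SE 0.15, 95% interval -1.0 to -0.35, adjusted p = 0.0355), with a mean ratio of 0.638 ± 0.13 (SD, n = 5). In WT mice Psmb9 stood at 0.08, 0.28, -0.23, 0.05 and -0.31 under vehicle and at -0.04, -0.62, 0.23, -0.30 and -0.34 under CMP013. These WT groups overlapped, and the log2 fold change was -0.19 (95% interval -0.58 to 0.20, adjusted p = 0.538). The difference of the Psmb9 responses, 0.48 (95% interval 0.00 to 0.96, adjusted p = 0.195), did not pass the test. The fall of Psmb9 in PXR-KO mice was also no longer called when any of 7 of the 10 animals was left out (vehicle replicates 1, 2, 4 and 5 and CMP013 replicates 1, 2 and 4). It was lost as well with quantile normalization (-0.58, adjusted p = 0.0901), with trend and robust variances (adjusted p = 0.0908) and without 4 vehicle animals (-0.63, adjusted p = 0.157). In these settings limma called 498, 0 and 363 of all probe sets in PXR-KO mice, against 1645 in the main fit. Over the 10 fits without a single animal the log2 fold change of Psmb9 lay between -0.76 and -0.60 and its adjusted p between 0.0249 and 0.0967.

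Psmb8 encodes the chymotrypsin-like subunit beta-5i. Its probe set 1422962_a_at gave -0.02, -0.22, 0.32, -0.16 and 0.00 in treated WT and -0.36, -0.57, -0.32, -0.04 and -0.22 in treated PXR-KO mice, while vehicle animals ranged from -0.22 to 0.16 and from -0.11 to 0.12. All 5 treated PXR-KO animals were below 0, but the 1 at -0.04 lay within the vehicle range. The log2 fold changes of Psmb8 were 0.01 (95% interval -0.26 to 0.28) in WT and -0.30 (-0.54 to -0.06) in PXR-KO animals, with adjusted p of 0.972 and 0.158, and the difference was 0.31 (-0.02 to 0.64, adjusted p = 0.229). The second Psmb8 probe set, 1444619_x_at, whose mark stands for possible cross-hybridization, had log2 fold changes of 0.08 and 0.05.

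Psmb10, the trypsin-like subunit beta-2i, was at 0.34, 0.12, 0.49, 0.00 and 0.39 in treated WT mice and at 0.30, 0.20, 0.27, 0.53 and 0.12 in treated PXR-KO mice. Every treated animal was at or above 0, and vehicle animals ranged from -0.07 to 0.14 in WT and from -0.10 to 0.21 in PXR-KO animals, so the groups overlapped in each genotype. The log2 fold changes were close in size, 0.27 (95% interval 0.03 to 0.52, adjusted p = 0.132) in WT and 0.28 (0.05 to 0.51, adjusted p = 0.167) in PXR-KO animals, and neither passed the test. Their difference was -0.01 with an interval of -0.31 to 0.29.

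The constitutive counterparts all rose in WT mice. The log2 fold change was 0.88 (SE 0.081) for Psmb5, 0.82 (SE 0.084) for Psmb6 and 0.82 (SE 0.12) for Psmb7, with adjusted p of 0.000132, 0.000265 and 0.00175. In PXR-KO mice the same genes had 0.13, 0.25 and 0.10, none of them called, and the responses differed between the genotypes by 0.76, 0.57 and 0.72 (adjusted p = 0.000138, 0.00452 and 0.00314). With quantile normalization the rise of Psmb7 was 0.62 (adjusted p = 0.0557), and the differences were 0.40 for Psmb6 (adjusted p = 0.0967) and 0.52 for Psmb7 (adjusted p = 0.145), none of these called. Subtracting each constitutive subunit from its immunoproteasome counterpart in the same animal gave the change of one relative to the other, not a ratio of their levels. For Psmb9 minus Psmb6 the 5 treated WT animals lay between -1.53 and -0.43, below all vehicle animals (-0.32 to 0.23), with a mean of -1.03 ± 0.41 (SD, n = 5). In treated PXR-KO mice the range was -1.31 to -0.34 with a mean of -0.92 ± 0.42, below the vehicle animals at -0.18 to 0.14. Psmb8 minus Psmb5 had a mean of -0.90 ± 0.26 in treated WT mice (-1.13 to -0.47) and of -0.43 ± 0.24 in treated PXR-KO mice (-0.74 to -0.16). These ranges too lay below those of the vehicle animals, -0.22 to 0.21 in WT and -0.14 to 0.11 in PXR-KO animals. Psmb10 minus Psmb7 took opposite signs, with means of -0.55 ± 0.26 in treated WT mice (-0.83 to -0.28) and 0.20 ± 0.22 in treated PXR-KO mice (-0.05 to 0.53). The treated WT animals were below the vehicle range of -0.20 to 0.52 in this pair, while the treated PXR-KO animals overlapped the vehicle range of -0.15 to 0.27. These differences were described and not tested.

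**Figure D2:**
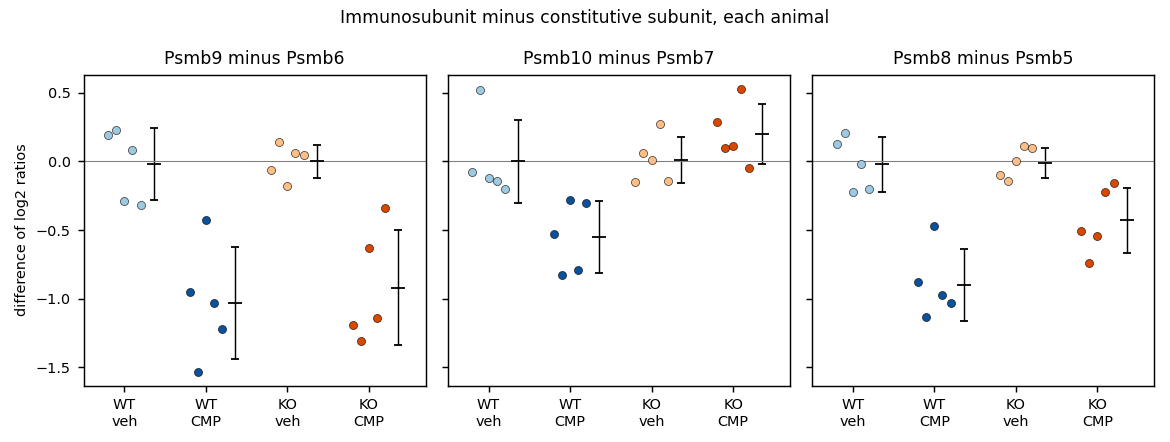
Log2 ratio of the immunosubunit minus that of its constitutive counterpart (y axis) in each animal (points) for the 3 subunit pairs, with the mean and SD of 5 animals as bars. Treated animals lie below 0 in all pairs in WT mice, and in PXR-KO mice for Psmb9 minus Psmb6 and Psmb8 minus Psmb5.

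Psme1, the alpha subunit of the PA28 activator that opens the proteasome core, rose in WT mice, and its response differed between the genotypes. WT mice had -0.02, 0.01, 0.08, 0.06 and -0.15 under vehicle and 0.35, 0.40, 0.53, 0.39 and 0.50 under CMP013. PXR-KO mice had -0.03, 0.14, -0.12, 0.01 and -0.01 under vehicle and -0.28, -0.32, -0.12, -0.23 and -0.13 under CMP013. Every treated WT animal was above, and every treated PXR-KO animal below, all vehicle animals of its genotype, the nearest PXR-KO pair at -0.12 being equal to the printed digits. Psme1 rose in WT mice by 0.44 (SE 0.080, 95% interval 0.26 to 0.62, adjusted p = 0.0058), a mean ratio of 1.35 ± 0.073 (SD, n = 5). With quantile normalization of the log ratios the rise was 0.34 and not called (adjusted p = 0.104). In PXR-KO mice the log2 fold change was -0.21 (95% interval -0.40 to -0.03, adjusted p = 0.19), with a mean ratio of 0.862 ± 0.053. The responses of Psme1 differed by 0.65 (SE 0.10, 95% interval 0.44 to 0.87, adjusted p = 0.000417), and this difference was called under all 26 alternatives of the fit.

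The transporter subunits could be followed at only 1 probe set with a small spread in both genotypes. For Tap1, probe set 1416016_at gave 0.05, 0.35, -0.19, -0.05 and -0.28 in vehicle and 0.43, 0.01, 0.85, 0.17 and 0.27 in treated WT mice. In PXR-KO mice it gave 0.06, 0.10, -0.12, 0.02 and -0.04 under vehicle and -0.38, -0.79, -0.66, -0.61 and -0.43 under CMP013. The WT groups overlapped, whereas the PXR-KO groups were apart. Tap1 fell by 0.58 in PXR-KO mice (SE 0.10, 95% interval -0.80 to -0.35, adjusted p = 0.0161), a mean ratio of 0.675 ± 0.079 (SD, n = 5). This call was lost with quantile normalization (-0.51, adjusted p = 0.0541), with trend and robust variances (adjusted p = 0.0716) and without 4 vehicle animals (-0.54, adjusted p = 0.0985). These settings called 498, 0 and 363 of all probe sets in PXR-KO mice, against 1645 in the main fit. In WT mice the log2 fold change of Tap1 was 0.37 (95% interval -0.02 to 0.76, adjusted p = 0.201). The responses of Tap1 differed by 0.95 (SE 0.20, 95% interval 0.53 to 1.37, adjusted p = 0.00483), the widest difference among the member probe sets, which became 0.84 (adjusted p = 0.0676) without those 4 animals. Of the other Tap1 probe sets, 1449803_x_at had a wide spread only in PXR-KO mice (SD 0.83 under vehicle and 0.60 under CMP013, against 0.23 and 0.24 in WT mice). These other probe sets, 1420274_at, 1448177_at and 1449803_x_at, had group SDs between 0.23 and 0.86 and no call. Their log2 fold changes were 0.47, 0.23 and 0.24 in WT mice, against 0.08, -0.33 and 0.46 in PXR-KO mice, so the fall in PXR-KO mice rests on 1 of 4 probe sets. Tap2 1453913_a_at had group SDs from 0.55 to 0.90 and log2 fold changes of 0.46 (95% interval -0.49 to 1.40) in WT and 0.23 (-0.64 to 1.10) in PXR-KO animals, and a change of the size seen for Tap1 was not detectable with this spread.

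Tapbp, the tapasin gene, rose in WT mice at each of its probe sets. At 1450378_at vehicle WT mice had -0.05, -0.06, 0.04, 0.10 and 0.01 and treated WT mice 0.61, 0.56, 0.76, 0.74 and 0.56. At 1421812_at the values were 0.16, -0.09, -0.05, -0.05 and -0.12 under vehicle and 0.33, 0.48, 0.54, 0.47 and 0.37 under CMP013. No treated WT animal reached down to a vehicle animal at either probe set. Tapbp rose by 0.64 (SE 0.080, 95% interval 0.46 to 0.81, adjusted p = 0.000805) at 1450378_at and by 0.47 (SE 0.086, 95% interval 0.28 to 0.66, adjusted p = 0.00582) at 1421812_at, with mean ratios of 1.57 ± 0.10 and 1.36 ± 0.08 (SD, n = 5). Treated PXR-KO mice stood at -0.09, -0.24, 0.24, 0.03 and 0.35 at 1450378_at and overlapped the vehicle animals at each probe set. Their log2 fold changes were 0.09 (95% interval -0.18 to 0.36) and 0.11 (95% interval -0.09 to 0.31), not called. The responses of Tapbp differed by 0.55 (SE 0.14, adjusted p = 0.0145) at 1450378_at, while 0.36 (SE 0.11, adjusted p = 0.0501) at 1421812_at lay just outside the threshold. With quantile normalization the rise at 1421812_at was 0.37 (adjusted p = 0.0949) and the difference at 1450378_at was 0.38 (adjusted p = 0.20), neither called. The difference at 1421812_at was called without WT vehicle replicate 1, WT CMP013 replicate 1 or PXR-KO CMP013 replicate 5 (lowest adjusted p = 0.0279).

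B2m and Erap1 were not called in any comparison. B2m had the narrowest spread of the members, with group SDs between 0.038 and 0.067 over its probe sets. At 1449289_a_at treated WT mice ranged from -0.24 to -0.08 and vehicle WT mice from -0.07 to 0.10, so the groups did not overlap, with a log2 fold change of -0.15 (95% interval -0.32 to 0.01, adjusted p = 0.215). At 1452428_a_at the B2m log2 fold changes were -0.04 (95% interval -0.19 to 0.12) in WT and -0.03 (95% interval -0.19 to 0.12) in PXR-KO animals. Erap1 1416942_at stood between 0.23 and 0.37 in treated and between -0.13 and 0.14 in vehicle PXR-KO mice, without overlap. Its log2 fold change of 0.31 (SE 0.082, 95% interval 0.13 to 0.49) had an adjusted p of 0.0705 in PXR-KO mice, and 0.10 (95% interval -0.07 to 0.27, adjusted p = 0.454) in WT mice. The second Erap1 probe set, 1439068_at, had 0.08 in WT and 0.28 in PXR-KO animals. The differences of the Erap1 responses, -0.21 and -0.20, had adjusted p of 0.196 and 0.596.

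**Figure D3:**
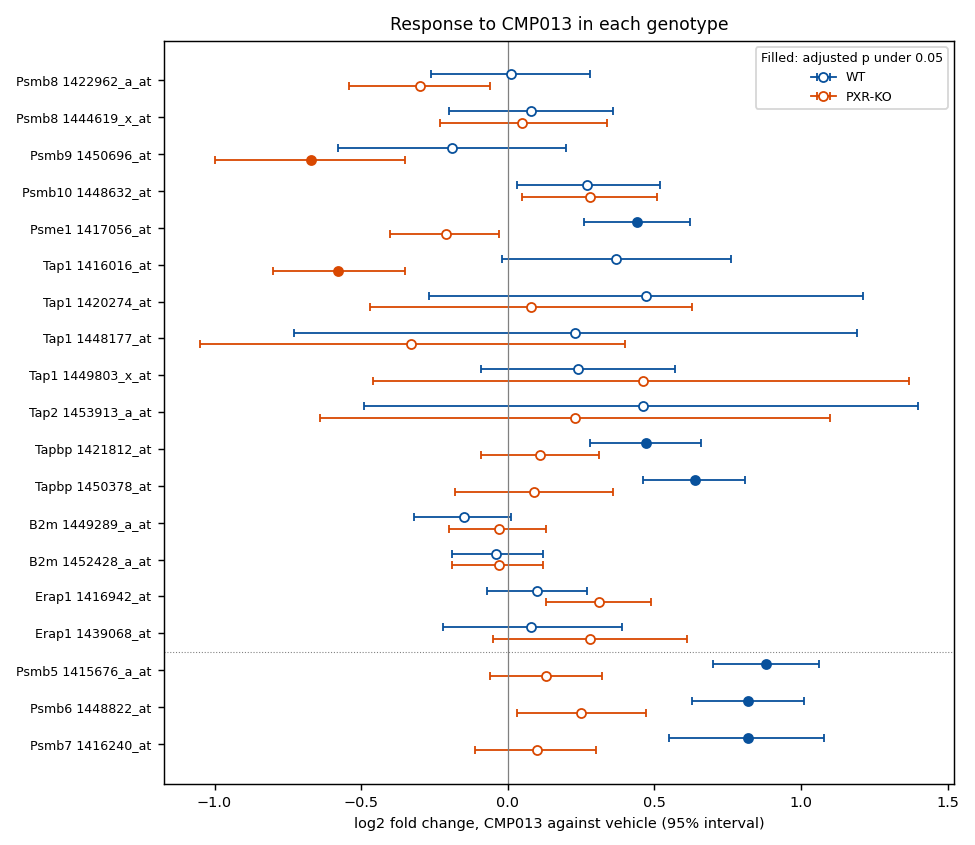
Log2 fold change of CMP013 against vehicle (x axis) with its 95% interval for the 16 member probe sets and, under the dotted line, Psmb5, Psmb6 and Psmb7, in WT and PXR-KO mice. Filled points passed an adjusted p of 0.05: Psme1 and Tapbp in WT mice, Psmb9 and Tap1 in PXR-KO mice, and the 3 constitutive subunits in WT mice.

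Several members varied together among animals of the same group. Over the deviations from the group means on 20 arrays, with 1 probe set per gene, Pearson's r was 0.768 (rho 0.717) for Psmb8 with Tap1, 0.760 (0.722) for Psmb9 with Tap1, 0.715 (0.723) for Psmb8 with Psmb9 and 0.702 (0.626) for Psmb8 with Psmb10. Without the 2 animals farthest from the median of the first gene, these values of r were 0.641, 0.624, 0.586 and 0.649. Psmb9, Tap1 and Psmb8 are neighbors on chromosome 17, and Psmb10 lies on chromosome 8. Over all 36 pairs the median r was 0.309 and the range -0.432 to 0.768. Tap2, measured with a wide spread, had r of 0.364 with Tap1. These arrays share a vehicle mean within each genotype, and the values of r are descriptions.

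The mean log2 ratio of the 9 measured members ranged from 0.06 to 0.41 in treated and from -0.21 to 0.15 in vehicle WT mice, and from -0.40 to 0.05 in treated and from -0.13 to 0.10 in vehicle PXR-KO mice. Of 18047 genes outside the lists, those with the highest correlation to this mean over the 20 arrays were Dhx58 (r = 0.904), Oasl2 (r = 0.900), Parp12 (r = 0.861), Mcm4 (r = 0.861), Rtp4 (r = 0.850), Ube2l6 (r = 0.830), Hlcs (r = 0.827) and Irf7 (r = 0.826). Dhx58 encodes an RNA sensor of the RIG-I family, Oasl2 a member of the oligoadenylate synthetase family, Ube2l6 the ISG15-conjugating enzyme and Irf7 an interferon regulatory factor. Mcm4 belongs to the replicative helicase, and Hlcs encodes the ligase that attaches biotin to carboxylases. Within the groups, the same correlations ranged from 0.662 for Irf7 to 0.863 for Dhx58.

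The other 20S subunits, activators and assembly factors rose in WT mice at most measured genes, by 1 probe set each. Over all their probe sets in WT mice, 15 of 25 were called for these 20S subunits. For the activators and assembly factors 9 of 18 were called. The members were mixed beside them. Of the 11 other 20S subunits 10 rose in WT mice (median log2 fold change 0.63), led by Psma7 at 1.13, Psmb3 at 0.90, Psmb2 at 0.90 and Psmb4 at 0.86. Of 7 other activators and assembly factors 6 rose (median 0.44), among them Psme4, encoding the activator PA200, at 0.84 and Pomp, the maturation factor that assembles immunoproteasomes as well, at 0.75. The assembly chaperones Psmg1, Psmg2 and Psmg3 rose by 0.33, 0.37 and 0.44, and the Psmg1 call was lost in 9 of the 10 fits that left out 1 animal (adjusted p up to 0.109). The calls of these chaperones were all lost with quantile normalization (adjusted p = 0.264, 0.18 and 0.134). They were also lost without 4 vehicle animals (adjusted p = 0.13, 0.0944 and 0.103). In PXR-KO mice limma called 0 of these 11 and 0 of these 7 genes, with 2 and 0 at an unadjusted p under 0.05 and medians of 0.04 and 0.01. The responses differed at 9 of the 11 and 5 of the 7 genes, all higher in WT mice, for example by 0.95 for Psmb3, 0.65 for Psma2 and 0.83 for Psme4. Among the 9 measured members, by 1 probe set each, 2 rose in WT mice with a median of 0.27.

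The partners of the members in class I presentation responded gene by gene. Over all probe sets of the heavy chain and class I-like genes, 8 of 23 were called in WT and 3 of 23 in PXR-KO mice. For the other loading and trimming genes 3 of 25 were called in WT and 1 of 25 in PXR-KO mice. These counts stand beside 14.4% and 3.65% of all probe sets on the array. Of 9 measured MHC class I heavy chain and class I-like genes, Cd1d1, which presents lipids, rose by 0.49 in WT mice (adjusted p = 0.00819), and Mr1, which presents vitamin B metabolites, fell by 1.01 in PXR-KO mice (adjusted p = 0.00522). The Mr1 responses differed by 1.37 (adjusted p = 0.00142). The Cd1d1 call was lost with quantile normalization (0.37, adjusted p = 0.0705) and without 4 vehicle animals (0.44, adjusted p = 0.0678). The Mr1 call in PXR-KO mice was lost with trend and robust variances (adjusted p = 0.0538). In that setting limma called 0 of all probe sets in PXR-KO mice, and the smallest adjusted p was 0.0536. The classical heavy chain H2-D1 had -0.33 (adjusted p = 0.0752) in WT and rose by 0.48 (adjusted p = 0.0297) in PXR-KO animals at 1426324_at, a difference of -0.81 (adjusted p = 0.000993). Over all 9 H2-D1 probe sets, 4 fell in WT mice and 1 rose in PXR-KO mice. The difference was called at 2 of these 9, lower in WT, and ranged from -0.81 to 0.33 over them. H2-K1 had -0.10 and -0.02 at its chosen probe set, and 2 of its 4 probe sets fell in WT mice. The H2-D1 call in PXR-KO mice was lost in 8 of the 10 fits that left out 1 animal (adjusted p up to 0.0797). Heavy chain genes are near-identical copies, so their probe sets can share signal. Of 10 other loading and trimming genes 3 rose in WT mice. These were the cytosolic peptidase Thop1 by 1.17, Nrd1 (nardilysin) by 0.41 and Tapbpl, the tapasin-related peptide editor, by 0.40. In PXR-KO mice they had 0.50 (adjusted p = 0.0937), 0.06 and 0.42 (adjusted p = 0.0989), none called. The Tapbpl responses differed by -0.02 (adjusted p = 0.943). With quantile normalization the WT calls of Nrd1 (adjusted p = 0.162) and Tapbpl (adjusted p = 0.143) were lost. In PXR-KO mice Npepps, the puromycin-sensitive aminopeptidase, rose by 0.48 (adjusted p = 0.0389). This call was lost in 9 of the 10 fits that left out 1 animal (adjusted p up to 0.103). Npepps had 0.31 in WT mice (adjusted p = 0.0746), and its responses differed by -0.17 (adjusted p = 0.494). Blmh, bleomycin hydrolase, had 0.19 in WT and -0.23 in PXR-KO animals, and these responses differed by 0.43 (adjusted p = 0.0178).

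Several MHC class II genes fell in both genotypes. Of 10 measured genes 5 fell in WT and 3 in PXR-KO animals, with medians of -0.64 and -0.66. The log2 fold changes ran from -1.20 to 0.10 in WT and from -1.29 to 0.22 in PXR-KO animals. The invariant chain Cd74 fell by 1.03 in WT and by 0.93 in PXR-KO animals, H2-Aa by 1.18 and 1.13, and H2-Ab1 by 1.20 and 1.09. H2-Eb1 fell by 0.92 in WT mice and had -0.74 (adjusted p = 0.122) in PXR-KO mice. Ctss, the cathepsin that trims the invariant chain, fell by 0.68 in WT mice and had 0.22 (adjusted p = 0.543) in PXR-KO mice, a difference of -0.90 (adjusted p = 0.0207). Leaving out single animals ended the PXR-KO calls of H2-Aa in 8, of H2-Ab1 in 10 and of Cd74 in 2 of 10 fits. The adjusted p there reached 0.0943, 0.102 and 0.0565. Quantile normalization took the calls over all probe sets from 6480 to 1752 in WT mice and from 1645 to 498 in PXR-KO mice. With it every called fall of the MHC class II genes named here was lost. In WT mice the adjusted p was 0.0643 for H2-Aa, 0.0725 for H2-Ab1, 0.118 for Cd74, 0.124 for H2-Eb1 and 0.0755 for Ctss. In PXR-KO mice it was 0.0663 for H2-Aa, 0.11 for H2-Ab1 and 0.0511 for Cd74.

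Interferon-stimulated genes rose in WT mice at 11 of 17 measured genes, with a median of 0.96. In PXR-KO mice 1 of 17 rose, with a median of -0.08. At an unadjusted p under 0.05 in limma there were 14 of 17 in WT mice, all higher. In PXR-KO mice there were 9 of 17, 3 higher and 6 lower. Over all probe sets the unadjusted shares were 27.6% in WT and 20.1% in PXR-KO animals. Ifit1 rose by 2.06, Rsad2 by 1.64, Usp18 by 1.41, Ifit3 by 1.40 and Irgm1 by 0.96 in WT mice. The same genes had -0.42, -0.08, -0.05, -0.54 and 0.16 in PXR-KO mice, not called. The responses of these 5 genes differed by 2.48, 1.72, 1.46, 1.93 and 0.80. Without 4 vehicle animals the WT calls of Usp18 (adjusted p = 0.0502) and Ifit3 (adjusted p = 0.0634) were lost. So were the differences of Usp18 (adjusted p = 0.0611) and Irgm1 (adjusted p = 0.0507). Quantile normalization also ended the call of the Irgm1 difference (adjusted p = 0.0953). The chemokine Cxcl10 rose in both genotypes, by 2.12 and 1.61. Its PXR-KO call was lost with trend and robust variances (adjusted p = 0.0536). Upstream of the interferon-stimulated genes, 1 of 18 genes was called in WT mice. This was Irf2, a regulator that can oppose Irf1, which fell by 1.04 (adjusted p = 0.000113) and had 0.03 in PXR-KO mice. Irf1, an activator of several members, had 0.71 (adjusted p = 0.0706) in WT and 0.23 (adjusted p = 0.455) in PXR-KO animals, and Nlrc5, the transactivator of class I genes, had -0.27 and 0.16. Irf8 rose by 0.49 (adjusted p = 0.0392) in PXR-KO mice and had -0.32 in WT mice, a difference of -0.81 (adjusted p = 0.0163), and its call in PXR-KO mice was lost in 9 of 10 fits without 1 animal (adjusted p up to 0.104). Ifnar2, a chain of the type I interferon receptor, and Jak1, its kinase, were not called in either genotype but differed in response by 0.46 (adjusted p = 0.0118) and -0.38 (adjusted p = 0.0466), the latter lost in 13 of 20 fits without 1 animal (adjusted p up to 0.0869).

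**Figure D4:**
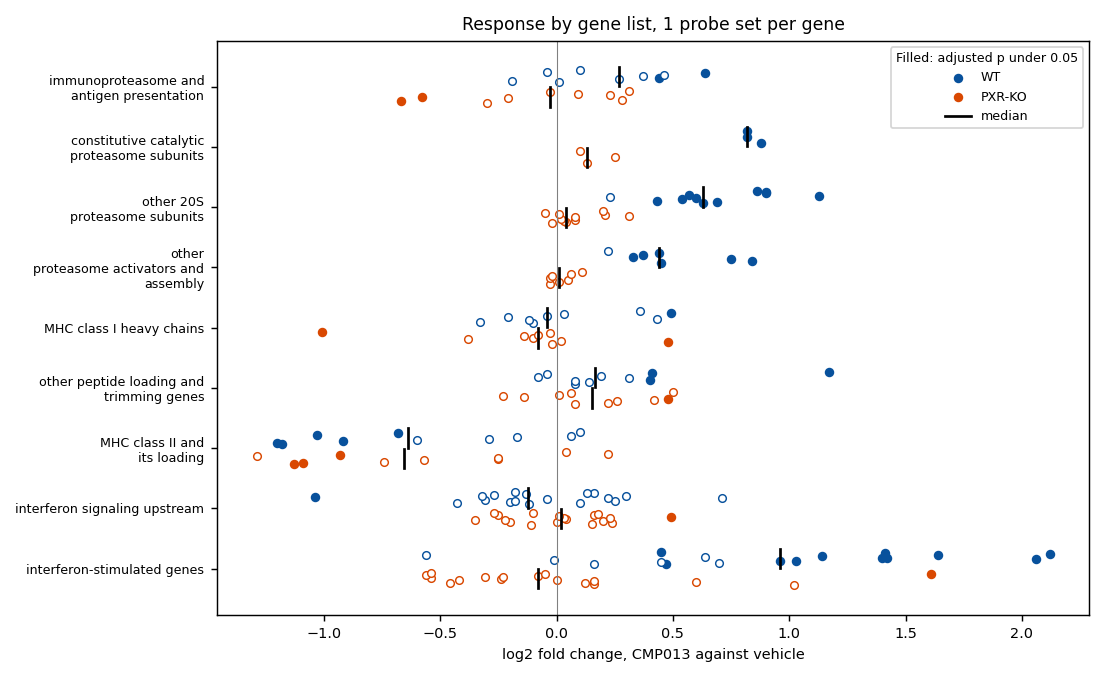
Log2 fold change of CMP013 against vehicle (x axis) for the members and 8 related gene lists (rows), 1 probe set per gene, in WT and PXR-KO mice; filled points passed an adjusted p of 0.05 and black bars are medians. The member median is 0.27 in WT and -0.03 in PXR-KO animals, beside 0.63 and 0.04 for the other 20S subunits and 0.96 and -0.08 for the interferon-stimulated genes.

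Some markers of liver cells were called, but not in every list. Over all probe sets 14.4% were called in WT and 3.65% in PXR-KO animals. In WT mice the macrophage and hepatocyte lists, each with 14.3% of genes called, were close to that share. The Kupffer, endothelial and neutrophil lists were above it in WT mice. In PXR-KO mice the endothelial, neutrophil and macrophage lists were above theirs. Whether these short lists differ from the whole array was not tested. Of 8 Kupffer cell markers, Clec4f and Vsig4 fell in WT mice, by 0.39 and 0.46, and the list mean ranged from -0.45 to -0.09 in treated against -0.30 to 0.21 in vehicle animals. In PXR-KO mice limma called 0 of the 8, with 1 at an unadjusted p under 0.05, and the means ranged from -0.02 to 0.41 and from -0.47 to 0.53. Of 5 sinusoidal endothelial markers, Stab2, Clec4g and Kdr fell in WT mice, by 0.63, 0.61 and 0.48 (list mean -0.46 to -0.36 against -0.18 to 0.14), while in PXR-KO mice Lyve1 rose by 1.12 and Kdr fell by 0.41 (0.00 to 0.20 against -0.10 to 0.10). Of 7 macrophage and monocyte markers Csf1r fell by 0.58 in WT mice and Cd68 rose by 1.11 in PXR-KO mice, with list means of -0.48 to -0.05 against -0.26 to 0.13 and of 0.02 to 0.34 against -0.20 to 0.26. Of 4 neutrophil markers S100a8 and S100a9 rose by 1.12 each in WT mice and S100a8 by 2.08 in PXR-KO mice (list mean -0.15 to 0.59 against -0.40 to 0.06, and 0.43 to 2.61 against -0.21 to 0.56). The other neutrophil markers were not called in either genotype, with -0.92 for Cxcr2 and -0.21 for Csf3r in WT mice and 1.35 for Cxcr2 in PXR-KO mice. The responses of 7 markers differed between the genotypes, by -2.27 for Cxcr2, -1.27 for Lyve1, -1.26 for Cd3e, -1.02 for Coro1a, -0.92 for Cd68, -0.69 for Vsig4 and -0.57 for Clec4g. By 1 probe set per gene, limma called 0 of 10 T and NK cell and 0 of 4 B cell markers in either genotype. It also called 0 of 4 dendritic cell and 0 of 3 general leukocyte markers. At an unadjusted p under 0.05 these lists had 3, 1, 0 and 0 in WT mice, against 3, 1, 2 and 1 in PXR-KO mice. Over all probe sets of the B cell markers, 2 of 15 were called in WT mice and 2 of 15 in PXR-KO mice. The T and NK cell means were -0.53 to -0.14 in treated against -0.20 to 0.23 in vehicle WT mice and -0.32 to -0.07 against -0.13 to 0.31 in PXR-KO mice. Of 7 hepatocyte markers Fgb fell by 0.29 in WT mice, and the list mean was -0.23 to -0.02 in treated against -0.09 to 0.12 in vehicle WT mice and -0.21 to -0.11 against -0.14 to 0.11 in PXR-KO mice. The part of these cells in the member responses was not tested.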

How the data were processed

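Liver RNA of 20 mice, 4 groups of 5, was hybridized to Affymetrix Mouse430_2 arrays, 1 per animal. The deposited values are log10 ratios that the authors computed with Rosetta Resolver 7.2, each array against the average of the 5 vehicle arrays of its genotype; the background and scaling steps inside Resolver are not given in the sources used here. The values lay between -2 and 2, none was missing, and all 20 columns were used. Depth has no meaning for arrays; the number of animals limits the precision, and intensities and detection calls were not used.

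After conversion to log2, CMP013 was compared with vehicle on the 10 arrays of each genotype, and the responses of the genotypes were compared in a fit of all 20 arrays. These were moderated tests of limma 3.58.1 (R 4.3.3), with p adjusted by Benjamini-Hochberg across 45037 probe sets and a threshold of 0.05. No filter on dim probe sets was possible. Members and lists were chosen with earlier results of these data known. Named were every member probe set, Psmb5, Psmb6, Psmb7, Irf1, Nlrc5, H2-K1, H2-D1, up to 4 called genes of smallest adjusted p per list and comparison, and the 8 genes outside the lists most correlated with the member mean; a further gene of this rule is not reported here. Other genes, and each member where 1 probe set stood for it, were measured by a probe set naming no other gene, preferring those not marked _s_ or _x_ and then the smallest SD within vehicle groups. Of all probe sets 34945 named 1 gene, 932 several and 9160 none. Gene symbols came from the platform annotation, and positions and promoter windows from RefSeq (GRCm38.p6).

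The fits were tested on simulated data with known changes. Alternatives were the replicate number as a block, a common median for all arrays, array weights, quantile normalization, trend and robust variances, 4 vehicle animals left out, each animal left out, unmarked probe sets only, all groups in one fit and a threshold of 1.25-fold. Tables were handled with Python 3.11.15, numpy 2.4.6, pandas 2.3.3 and scipy 1.17.1, and plots with matplotlib 3.10.9.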

Additional observations from a re-analysis of the deposited data

Results flagged for a closer look

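The responses of 31 of the 55 named probe sets differed between the genotypes by the test of the difference in limma. Of these 31, 26 had been named because they were among the called genes of smallest adjusted p for this same difference, so the count is largely set by the choice of genes. Over all probe sets 11.0% differed. Among the members these were Psme1 at 0.65, Tap1 1416016_at at 0.95 and Tapbp 1450378_at at 0.55, as WT minus PXR-KO response on the log2 scale. In the proteasome they were Psmb5 at 0.76, Psmb6 at 0.57, Psmb7 at 0.72, Psmb3 at 0.95, Psmb4 at 0.66, Psmb2 at 0.89, Psma7 at 0.83, Psma2 at 0.65, Pomp at 0.70, Psme4 at 0.83, Psmg2 at 0.39 and Psmg1 at 0.37. In antigen presentation they were Cd1d1 at 0.53, Mr1 at 1.37, H2-D1 1426324_at at -0.81, Thop1 at 0.67, Nrd1 at 0.34, Blmh at 0.43 and Ctss at -0.90. In interferon signaling they were Irf2 at -1.07, Irf8 at -0.81, Ifnar2 at 0.46, Jak1 at -0.38, Irgm1 at 0.80, Ifit1 at 2.48, Usp18 at 1.46, Ifit3 at 1.93 and Rsad2 at 1.72.

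In 14 of 220 groups of 5 animals, and in 3 of 64 among the members, a single animal stood apart from the others by Dixon's criterion, which chance meets in about 1 in 20 groups. Among the members, WT CMP013 replicate 5 was low for Tap1 1448177_at (-1.36) and for Tap2 (-0.85), and WT vehicle replicate 1 was high for Tapbp 1421812_at (0.16). Tap1 1416016_at and the Psme1 and Tapbp probe sets had no such animal in the treated groups. PXR-KO CMP013 replicate 5 stood below the other 4 treated animals for the constitutive proteasome genes Psmb5 (-0.06), Psmb6 (-0.03) and Psmb4 (0.01). PXR-KO vehicle replicate 1 stood apart for Psma7 (0.20), Psma2 (0.08) and Psmg1 (0.10). The remaining values were -2.14 for H2-Aa in PXR-KO CMP013 replicate 1, -1.19 for Irf2 in WT CMP013 replicate 5, -0.86 for Ifit1 in PXR-KO CMP013 replicate 2, -0.40 for Ifit3 in WT vehicle replicate 3 and 0.71 for Irf1 in PXR-KO CMP013 replicate 1.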

How the results depend on the processing

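Of the 16 member probe sets, 3 were called in WT mice, 2 in PXR-KO mice and 3 for the difference of the responses. In WT mice the count was 1 with the replicate block and 1 with quantile normalization, where Tapbp 1450378_at was the remaining call, and 3 under the other alternatives. In PXR-KO mice it was 0 with the replicate block, 0 with quantile normalization, 0 with trend and robust variances and 0 with 4 vehicle animals left out (WT replicates 3 and 4, PXR-KO replicates 2 and 4, set apart by an earlier analysis of these data), 3 with all groups in one fit (Erap1 1416942_at added, adjusted p = 0.0109) and 2 under the other alternatives that kept every animal. Leaving out each animal in turn gave 3 to 3 calls in WT mice, 1 to 2 in PXR-KO mice and 3 to 4 for the difference. For the difference the other alternatives gave 2 to 4, with 2 for quantile normalization and 2 with 4 vehicle animals left out. The share of called genes in the related lists was 47.1%, 9.41% and 44.7% in WT mice, in PXR-KO mice and for the difference, and 36.1%, 7.10% and 30.8% over all their probe sets.

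Over all 45037 probe sets the calls numbered 6480 in WT mice, 1645 in PXR-KO mice and 4936 for the difference. They were 3026, 119 and 2497 with the replicate block, 1752, 498 and 1231 with quantile normalization, and 3308, 363 and 2544 with 4 vehicle animals left out. With all 4 groups in one fit they were 7923 in WT and 3049 in PXR-KO animals. With trend and robust variances limma called 0 probe sets in PXR-KO mice, where 8806 had an unadjusted p under 0.05 and the smallest adjusted p was 0.0536. Animals of the same replicate number in a genotype had correlations of their deviations between -0.242 and 0.0651, so the numbers did not pair the samples and the block was not used further.

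Of 3300 values of the 55 named probe sets under these alternatives, 3073 kept their call or stayed uncalled, 210 lost it, 17 gained one and 0 changed sign where called; 73 of the 1763 that were uncalled in both fits changed sign. Among the named genes of the related lists, the only ones of those lists refitted, leaving out single animals ended the call of 1 in WT mice (Psmg1, in 9 of 10 fits), of 6 in PXR-KO mice (H2-D1, Npepps, H2-Aa, H2-Ab1, Cd74 and Irf8) and of 3 for the difference (Psmg1 in 17, Nrd1 in 15 and Jak1 in 13 of 20 fits). It added Irf1 in WT mice without CMP013 replicate 2 and Thop1 in PXR-KO mice without CMP013 replicate 3. With quantile normalization 14 of the named calls were lost in WT mice, 8 in PXR-KO mice and 14 for the difference, and with 4 vehicle animals left out 7, 8 and 8. Quantile normalization gave all compared arrays the same distribution of log ratios. Before it, the SD over probe sets was 0.334 to 0.463 on vehicle and 0.467 to 0.704 on treated arrays. The setting thus narrowed treated and widened vehicle arrays, and a call lost with it is not particular to that gene. What part this had in the lost calls, and the cause of the other shifts, was not tested. Signal over background was not used, so whether the wide spread of Tap2 and of 3 Tap1 probe sets goes with dim signal was not tested.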
